A study of Mus musculus with 12 samples.

Results

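The genes described here belong to the families first known for steering growing axons: the Eph receptors and their ephrin ligands, the semaphorins with their plexin and neuropilin receptors, the netrins with the Unc5 receptors, Slit and Robo, and the Flrt proteins. The neuron navigators Nav1, Nav2 and Nav3 and the growth cone protein Basp1 were added to them. Members were taken by symbol, under a rule set with earlier results of these data known. Of the 17097 genes measured on the arrays, 77 were members. Among them were 13 Eph receptors, 7 ephrins, 20 semaphorins, and 12 plexins and neuropilins. The rest were 12 netrins and Unc5 genes, 6 Slit and Robo genes, 3 Flrt genes and 4 Nav and Basp1 genes. Basal epidermal cells were sorted from wounded tail skin of CD1 mice, an outbred strain, at D4 and D7 after a punch wound of 3 mm. At each day a first punch, 4 mm wide, took the leading edge (LE), a second, 6 mm wide, took the proliferative hub beyond it, and control skin came from far away on the wounded tails. Each of the 6 groups had 2 arrays, every array came from 300 cells of a pool of 5 mice, and the cells had been gated for α6-integrin, an adhesion receptor of basal cells, with CD34+ bulge cells left out.

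Eph receptors are tyrosine kinases that bind ephrins on the surface of a neighbouring cell, signal in both cells and often drive them apart, and in epithelia they help to set boundaries. Plexins bind semaphorins and act on small GTPases and integrins, neuropilins help them to bind secreted semaphorins and also bind VEGF family ligands, and Flrt proteins on one cell bind Unc5 receptors and latrophilins on another. Nav proteins bind microtubules and help cell processes to extend, and Basp1 lies on the inner face of the membrane, where it works with GAP-43 and MARCKS on the actin cortex. The symbol rule also took in Unc50, a gene unrelated to the Unc5 receptors, Unc5cl, a related protein without the receptor's outer part, and Plxna4os1, an antisense transcript of a plexin gene. Ephb2, Efna3 and Slit3 had no probe set of their own in the annotation and were not analysed here.

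Values are RMA log2 intensities, in which 1 unit is a 2-fold difference, and the array medians were 5.4 to 5.47 at D4 and 4.25 to 4.28 at D7. Each comparison of regions therefore stayed within a day, and days were set against each other only as differences of differences. Of the 77 members, 44 averaged above the median of their arrays and 33 did not. Krt5 and Krt14, keratins of basal cells, lay between 11.56 and 12.72 on all 12 arrays, and Cd34 lay below the array median. In sorted pools of this kind, fewer cells of a type and less RNA per cell cannot be told apart.

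The promoters of 4 members that lay far apart between the regions are shown, as they differ in base composition and in the motifs they hold. Each covers 250 bases before to 50 bases after the start that RefSeq gives on GRCm38.p6, read 5′ to 3′ on the gene's strand. Capitals mark the AP-1 motif, searched as TGANTCA, or the GC box GGGCGG, on both strands. N stands for any base, and the match in Sema4d has A there.
Basp1, chr15:25413715-25414014, minus strand: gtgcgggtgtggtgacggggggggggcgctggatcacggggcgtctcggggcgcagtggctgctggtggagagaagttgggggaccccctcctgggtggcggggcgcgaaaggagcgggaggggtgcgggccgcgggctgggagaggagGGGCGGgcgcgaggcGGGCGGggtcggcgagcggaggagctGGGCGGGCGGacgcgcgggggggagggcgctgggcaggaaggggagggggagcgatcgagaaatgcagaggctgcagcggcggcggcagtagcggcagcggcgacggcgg
Flrt2, chr12:95691976-95692275, plus strand: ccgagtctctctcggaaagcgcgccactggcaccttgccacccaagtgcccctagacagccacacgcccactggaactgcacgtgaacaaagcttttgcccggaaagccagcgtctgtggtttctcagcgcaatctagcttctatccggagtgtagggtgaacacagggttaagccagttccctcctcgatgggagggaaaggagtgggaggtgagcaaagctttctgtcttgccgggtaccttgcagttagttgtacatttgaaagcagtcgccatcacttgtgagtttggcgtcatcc
Sema4d, the first of 3 promoters listed, chr13:51748761-51749060, minus strand: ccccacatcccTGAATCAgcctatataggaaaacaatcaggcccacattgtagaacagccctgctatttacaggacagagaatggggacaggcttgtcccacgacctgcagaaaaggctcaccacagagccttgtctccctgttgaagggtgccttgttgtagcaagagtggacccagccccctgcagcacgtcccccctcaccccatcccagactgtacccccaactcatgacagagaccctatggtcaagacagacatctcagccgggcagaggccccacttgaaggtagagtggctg
Unc5b, chr10:60831532-60831831, minus strand: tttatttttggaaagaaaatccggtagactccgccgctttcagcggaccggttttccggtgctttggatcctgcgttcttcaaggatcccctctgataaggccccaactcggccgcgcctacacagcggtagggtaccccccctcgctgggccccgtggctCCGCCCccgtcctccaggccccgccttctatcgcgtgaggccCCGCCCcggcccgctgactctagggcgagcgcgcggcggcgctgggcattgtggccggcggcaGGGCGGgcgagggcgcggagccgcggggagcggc
The Basp1 window was 78% G or C with 38 CpG sites and 4 GC boxes, of which a pair overlap. That of Unc5b was 69.7% G or C with 36 CpG sites and 3 GC boxes. That of Flrt2 was 55.3% G or C with 14 CpG sites and neither motif, and that of Sema4d was 56% with 3 CpG sites and 1 AP-1 motif. A promoter was listed for 65 of the 77 members. The AP-1 motif was found in 3 of the 65 (4.62%) and in 8.97% of all 27025 genes with a listed promoter, or 7.71% of the 13605 that were on the arrays. The GC box was found in 48 of the 65 members (73.8%), in 38.2% of all genes and in 57.3% of those on the arrays. Among the members that exceeded control in the LE at D4, 7 of 10 had a GC box and 1, Sema4d, an AP-1 motif. Among those lower there, 7 of 8 had a GC box and 0 an AP-1 motif. These are matches of letters and not sites of binding.

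Most of the members that were called against control skin were called in the LE. At D4, LE cells had 11 of the 77 members above control and 8 below it, at an adjusted p under 0.05 in limma. Of all genes, 8.3% were higher and 5.83% lower in this comparison, against 14.3% and 10.4% of the members. At D7, 6 members were higher and 4 lower, or 7.79% and 5.19% of them, against 9.25% and 5.37% of all genes. The share called was thus above that of all genes at D4 and close to it at D7. All 4 Nav and Basp1 genes, which were added by name, were among the 11 higher at D4, and 3 of them among the 6 at D7. As the members were chosen with earlier results of these data known, the shares do not test the families. Most members were not called, and the median log2 fold change of LE over control was 0.01 at D4 and -0.05 at D7, against 0.03 and 0.02 over all genes.

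**Figure D1:**
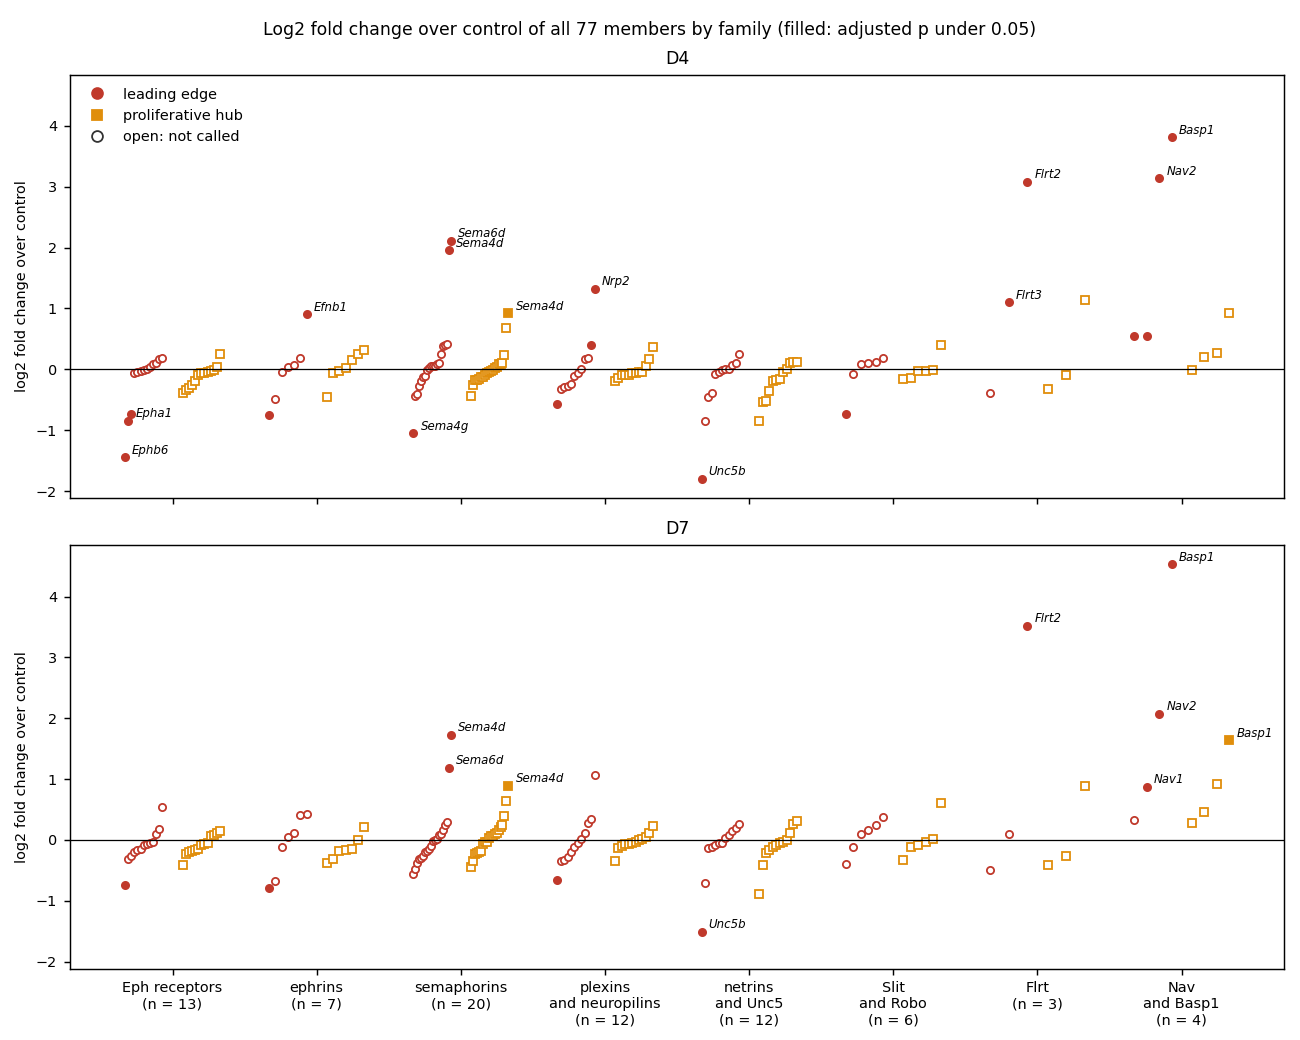
Log2 fold change over control (vertical axis) of each of the 77 members, by family, for the LE (circles) and the proliferative hub (squares) at D4 and D7. Filled symbols passed an adjusted p of 0.05 in limma; Basp1, Flrt2, Nav2, Sema6d and Sema4d stand highest in the LE at D4, Unc5b and Ephb6 lowest, and most members lie near 0.

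The rule of the study's methods is a change above 2-fold in each replicate. Here each array was set against the array of the same number, and the labels do not say what a number marks. Other pairings were not tried, and the counts can differ under them. The rule was met by 6 members in the upward and 2 in the downward direction at D4, against 2.26% and 1.56% of all genes. It was met by 5 and 1 members at D7, against 1.83% and 1.51%. The 6 were Basp1, Flrt2, Flrt3, Nav2, Sema4d and Sema6d, which all but Flrt3 met again at D7. The members that met it downward were Ephb6 at D4 and Unc5b at both days. Of the 33 members that did not average above the array median, only Robo2 was called, lower in the LE at D4.

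Basp1 and Nav2, both linked to growing cell processes, were among the most different members. Basp1 had log2 intensities of 8.69 and 9.10 in the LE at D4, against 5.22 and 5.48 in the hub and 5.13 and 5.03 in control. At D7 they were 8.55 and 8.31 in the LE, 5.52 and 5.57 in the hub and 4.06 and 3.75 in control. The LE arrays lay far above all others at both days, while the hub stood near control at D4 and clear of it at D7. The difference of LE over control was 3.81 (adjusted p = 3.67e-06, SE 0.17), or at least 14.0-fold, at D4 and 4.53 (adjusted p = 1.39e-06, SE 0.17), or at least 23.1-fold, at D7. The folds are given as lower bounds because Basp1 lay below the median of all 4 control arrays, where a signal above background was not shown.

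Nav2, a microtubule-binding navigator, had 8.90 and 8.17 in the LE at D4, against 6.19 and 6.44 in the hub and 5.35 and 5.45 in control. At D7 its values were 7.90 and 7.50 in the LE, 6.41 and 6.67 in the hub and 5.45 and 5.81 in control. The 3 regions kept the order LE, hub, control without overlap at both days. LE exceeded control by 3.14 (adjusted p = 4.58e-05, SE 0.24) at D4 and by 2.07 (adjusted p = 0.000572, SE 0.24) at D7. Nav2 had 5 further probe sets, and they did not all move with it: their differences ran between -0.03 and 2.35 at D4 and between -0.16 and 1.81 at D7, with 1 of the 5 called higher at each day.

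The other navigators differed by less. Nav1 was higher in the LE by 0.55 (adjusted p = 0.0465, SE 0.16) at D4 and by 0.87 (adjusted p = 0.00618, SE 0.16) at D7. Its 3 other probe sets ran from -0.37 to 0.52 at D4 and from -0.38 to 0.61 at D7, and the mean of its probe sets passed at neither day (adjusted p = 0.225 and 0.112). The D4 call was lost without any array of the LE or of control at either day (adjusted p from 0.0577 to 0.203), and the D7 call without LE D7 array 1 (adjusted p = 0.0617). Nav3 was higher at D4 by 0.55 (adjusted p = 0.0222, SE 0.13), a call lost without LE D4 array 1 (adjusted p = 0.138) or control D4 array 2 (adjusted p = 0.137), and it differed at D7 by 0.33 (adjusted p = 0.144, SE 0.13).

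**Figure D2:**
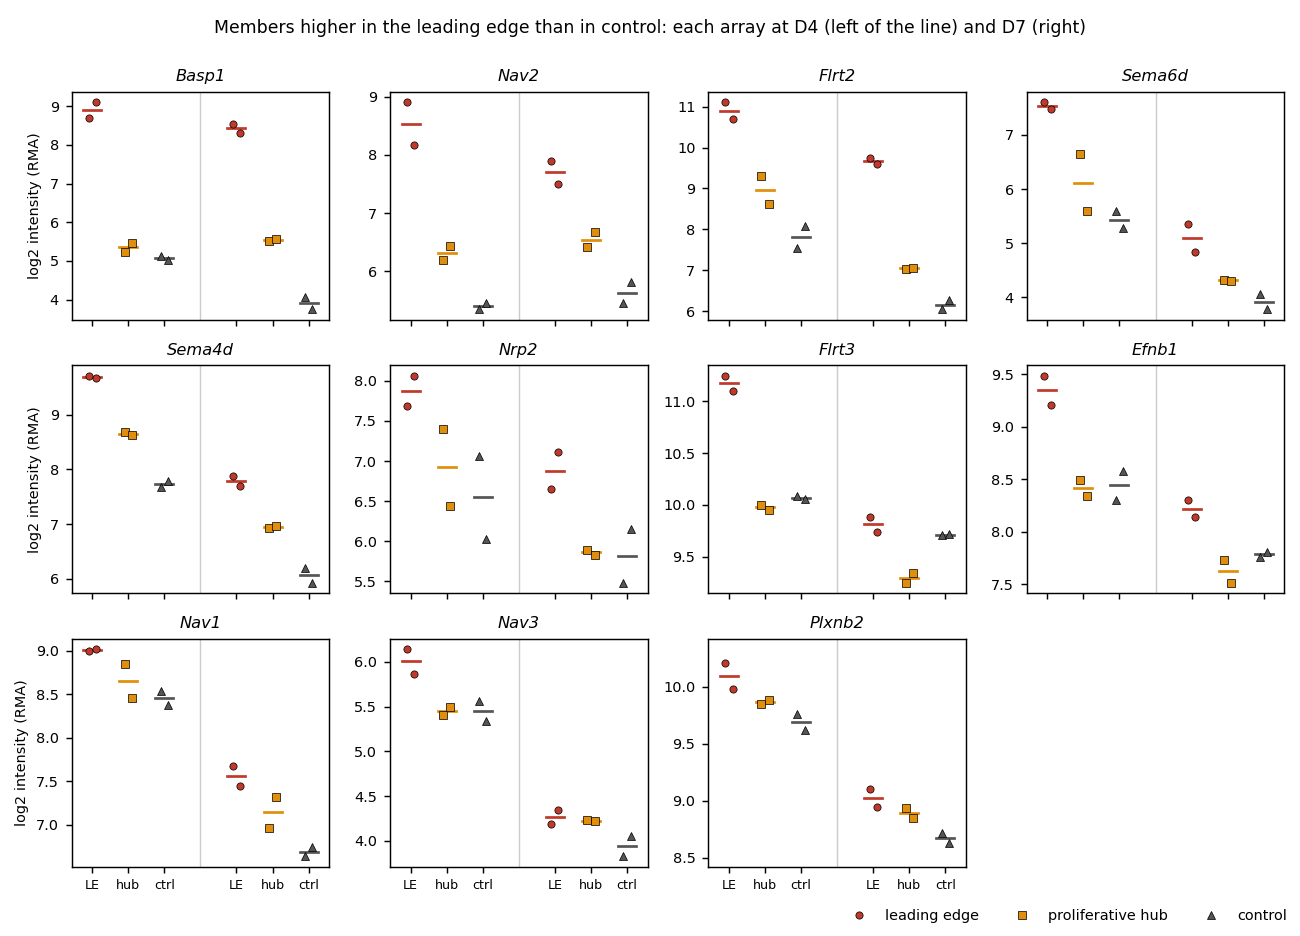
Log2 intensity (vertical axis) on each array of the 11 members that were higher in the LE than in control, with D4 left and D7 right of the grey line; LE, hub and control run from left to right, points are arrays and bars are means of 2. The LE arrays lie above both control arrays in every panel at D4, and Basp1 in the hub lies near control at D4 and above it at D7.

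Flrt2 and Flrt3, adhesion proteins that bind Unc5 receptors, were higher in the LE while the receptor gene Unc5b was lower there. Flrt2 had 11.11 and 10.69 in the LE at D4, 9.30 and 8.62 in the hub and 7.54 and 8.09 in control. Its D7 values were 9.74 and 9.61 in the LE, 7.04 and 7.05 in the hub and 6.05 and 6.27 in control. Each region stood apart from the next at both days. LE exceeded control by 3.08 (adjusted p = 5.51e-05, SE 0.24), or 8.47-fold, at D4 and by 3.52 (adjusted p = 4.26e-05, SE 0.24), or 11.4-fold, at D7. Its 2 other probe sets gave larger values at D4, 4.73 and 4.84, and similar ones at D7, 3.56 and 3.70.

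Flrt3 had 11.25 and 11.10 in the LE at D4, 10.00 and 9.95 in the hub and 10.08 and 10.06 in control. At D7 it had 9.89 and 9.74 in the LE, 9.25 and 9.35 in the hub and 9.71 and 9.72 in control. The LE thus stood clear of control at D4 and only slightly above it at D7. The differences were 1.10 (adjusted p = 0.000145, SE 0.10) at D4 and 0.10 (adjusted p = 0.615, SE 0.10) at D7. Flrt1 did not pass at either day (-0.39 and -0.50).

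Unc5b, a netrin receptor that also binds Flrt proteins, had 7.02 and 7.62 in the LE at D4, against 8.44 and 8.75 in the hub and 9.02 and 9.21 in control. Unc5b at D7 read 6.88 and 6.70 in the LE, against 7.94 and 7.81 in the hub and 8.34 and 8.25 in control. The regions ran in the reverse order of Flrt2 and did not overlap. Unc5b fell by 1.80 (adjusted p = 0.00028, SE 0.19) in the LE against control at D4 and by 1.51 (adjusted p = 0.000854, SE 0.19) at D7, and its other probe set was also lower, with -0.49 and -0.63. The other 11 members of the netrin and Unc5 families were not called. The netrin Ntn4 read lower in both wound regions (-0.46 and -0.70 in the LE at D4 and D7), and its control arrays at D4 had 7.25 and 6.27. Its LE D4 difference passed without control D4 array 2 (adjusted p = 0.00951), and its LE D7 and hub D7 differences passed without either control D4 array (adjusted p = 0.0106 and 0.0285).

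**Figure D3:**
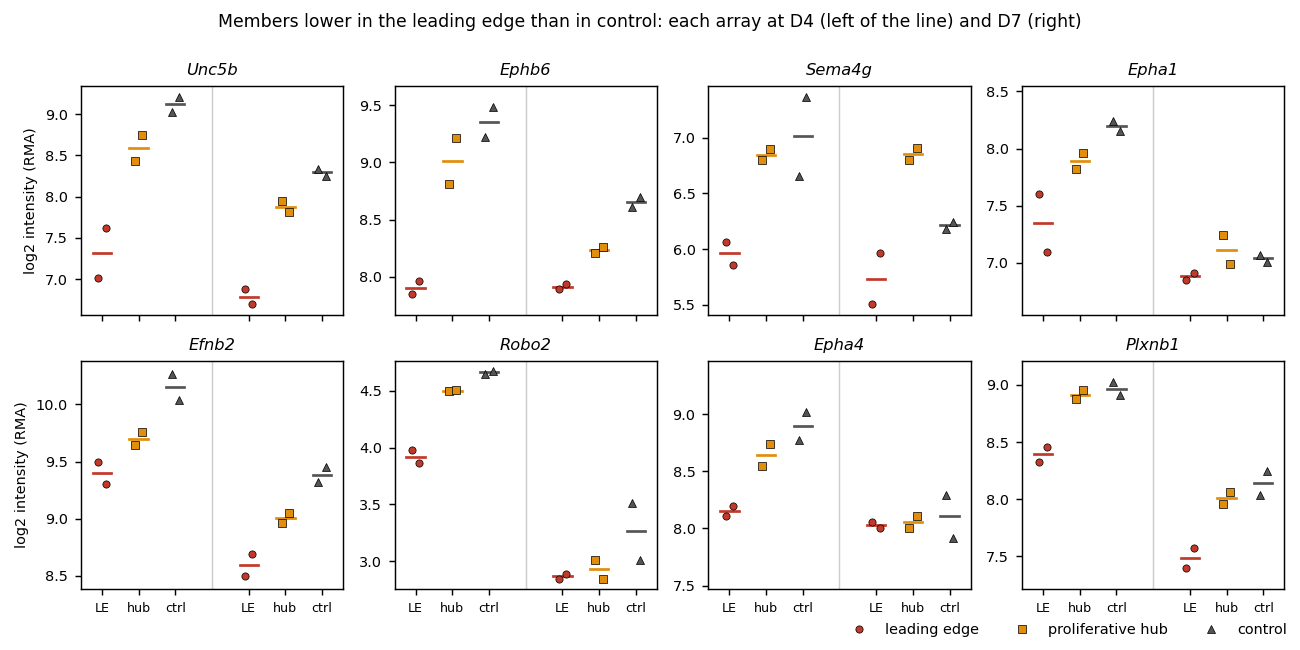
Log2 intensity (vertical axis) on each array of the 8 members that were lower in the LE than in control, with D4 left and D7 right of the grey line; LE, hub and control run from left to right, points are arrays and bars are means of 2. The LE arrays of Unc5b, Ephb6, Efnb2, Plxnb1, Sema4g and Epha1 lie below all hub and control arrays of the day at both days. Those of Epha4 and Robo2 do so at D4 only, and Sema4g is highest in the hub at D7.

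Among the 20 semaphorins, 2 rose in the LE at both days. Sema4d, a membrane-bound ligand of plexin B1 and plexin B2, had 9.71 and 9.67 in the LE at D4, 8.69 and 8.62 in the hub and 7.67 and 7.79 in control. Its D7 values were 7.88 and 7.70 in the LE, 6.93 and 6.97 in the hub and 6.20 and 5.92 in control. The hub stood midway between the other regions at both days. LE exceeded control by 1.96 (adjusted p = 1.86e-05, SE 0.12) and by 1.72 (adjusted p = 4.26e-05, SE 0.12), and a second probe set was called higher too, by 1.69 and 1.12.

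Sema6d, a transmembrane ligand of plexin A1, had 7.60 and 7.48 in the LE at D4, 6.64 and 5.59 in the hub and 5.59 and 5.28 in control. The hub arrays lay far apart, with array 2 level with the upper control array. At D7 Sema6d had 5.36 and 4.84 in the LE, 4.33 and 4.31 in the hub and 4.06 and 3.77 in control. LE exceeded control by 2.11 (adjusted p = 0.00135, SE 0.30) at D4 and by 1.18 (adjusted p = 0.0261, SE 0.30) at D7. Both control arrays at D7 and control array 2 at D4 lay below their array medians, where a signal above background was not shown. The D7 call was lost without LE D7 array 1 (adjusted p = 0.183), control D7 array 1 (0.068) or control D7 array 2 (0.142). Its 3 other probe sets differed by less, 0.10 to 0.97 at D4 and 0.25 to 0.39 at D7.

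Sema4g, another membrane semaphorin, had 6.07 and 5.86 in the LE at D4, 6.80 and 6.90 in the hub and 6.66 and 7.37 in control. It fell by 1.05 (adjusted p = 0.011, SE 0.22) in the LE against control, a call lost without LE D4 array 2 (adjusted p = 0.0636) or control D4 array 2 (0.0536). At D7 it had 5.50 and 5.97 in the LE, 6.80 and 6.91 in the hub and 6.18 and 6.25 in control, with a difference of -0.48 between LE and control (adjusted p = 0.198, SE 0.22). The other 17 semaphorins, secreted class 3 genes such as Sema3a included, ran from -0.44 to 0.41 at D4 and from -0.56 to 0.30 at D7, and 0 of them were called.

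The plexin receptors of Sema4d moved in opposite directions. Plxnb1 had 8.32 and 8.46 in the LE at D4, against 8.87 and 8.95 in the hub and 9.02 and 8.91 in control. Plxnb1 at D7 read 7.40 and 7.57 in the LE, against 7.96 and 8.06 in the hub and 8.04 and 8.24 in control. Hub and control overlapped at both days and the LE lay below both. Plxnb1 fell by 0.57 (adjusted p = 0.00969, SE 0.12) and by 0.65 (adjusted p = 0.00521, SE 0.12) against control, and its other probe set gave -0.40 and -0.15, not called. Its D4 call was lost without LE D4 array 1 (adjusted p = 0.0623) or control D4 array 1 (0.0554), and its D7 call without LE D7 array 1 (0.0523).

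Plxnb2 was higher in the LE at D4 by 0.40 (adjusted p = 0.0432, SE 0.11), with 10.21 and 9.98 in the LE and 9.76 and 9.62 in control. That call was lost in 11 of the 12 fits that each left out 1 array, all but the fit without LE D4 array 2 (adjusted p up to 0.233), and in the fit to the D4 arrays alone (adjusted p = 0.111).

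Nrp2, the neuropilin that also binds VEGF-C, had 7.68 and 8.06 in the LE at D4, 7.40 and 6.44 in the hub and 7.06 and 6.03 in control. Its replicates differed more than those of the genes above, and LE and control still did not overlap. The difference was 1.33 (adjusted p = 0.0484, SE 0.39) at D4 and 1.06 (adjusted p = 0.103, SE 0.39) at D7, and its second probe set was called higher at both days, by 1.93 and 1.57. The D4 call was lost without either LE D4 array, control D4 array 2 or any D7 array (adjusted p from 0.0524 to 0.278). The summed linear intensity of 6 endothelial markers was 356 to 549 in the LE at D4, against 209 to 595 in control, and 277 to 337 in the LE at D7, against 136 to 164 in control. Of these 6, Cdh5 alone was called, higher in the LE at D7 by 2.03 (adjusted p = 0.027), and control D4 array 1 was high for both Nrp2 and the marker sum. The part of endothelial cells in the Nrp2 values was not tested.

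Among the 7 ephrins, Efnb1 and Efnb2 went opposite ways in the LE. Efnb1 had 9.49 and 9.21 in the LE at D4, 8.49 and 8.34 in the hub and 8.31 and 8.58 in control. LE stood above the other regions, which overlapped each other, and the difference from control was 0.90 (adjusted p = 0.00259, SE 0.14). At D7 Efnb1 had 8.30 and 8.14 in the LE, against 7.76 and 7.81 in control, a difference of 0.43 (adjusted p = 0.0724, SE 0.14). Its 2 other probe sets rose at D4 by 1.06 and 1.12. At D7 one of them was called higher (0.58, adjusted p = 0.0368) and the other was not (0.29, adjusted p = 0.221), and the mean of the probe sets passed (0.44, adjusted p = 0.0242).

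Efnb2, the ephrin of arterial vessels and of many epithelia, had 9.49 and 9.30 in the LE at D4, 9.64 and 9.76 in the hub and 10.27 and 10.04 in control. At D7 it had 8.50 and 8.69 in the LE, 8.96 and 9.05 in the hub and 9.32 and 9.45 in control. The order was LE, hub, control from low to high at both days, with no overlap. Efnb2 fell by 0.76 (adjusted p = 0.00339, SE 0.13) at D4 and by 0.79 (adjusted p = 0.00291, SE 0.13) at D7 against control, and its 3 other probe sets were also called lower at both days. Efnb3 and the 4 ephrin-A genes were not called, with differences between -0.48 and 0.19 at D4 and between -0.68 and 0.40 at D7.

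Of the 13 Eph receptors, the LE had 0 above and 3 below control at D4, and 0 and 1 at D7, while 8.3% and 5.83% of all genes were called at D4 and 9.25% and 5.37% at D7. Ephb6, a receptor whose kinase domain is inactive, had 7.85 and 7.96 in the LE at D4, against 8.81 and 9.21 in the hub and 9.22 and 9.49 in control. At D7 it had 7.89 and 7.94 in the LE, 8.21 and 8.26 in the hub and 8.61 and 8.70 in control. The LE lay below both other regions at both days. Ephb6 fell by 1.45 (adjusted p = 0.000204, SE 0.14) and by 0.74 (adjusted p = 0.00785, SE 0.14) against control, and the D7 call was lost without LE D7 array 1 (adjusted p = 0.0608) or control D7 array 2 (0.055).

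Epha1 and Epha4, receptors of ephrin-A ligands, were lower in the LE at D4 and not called at D7. Epha1 had 7.60 and 7.09 in the LE at D4, against 8.24 and 8.15 in control, a difference of -0.85 (adjusted p = 0.00685, SE 0.16). Its 2 other probe sets gave -0.47 and 0.09, and the mean of its probe sets did not pass (adjusted p = 0.0536). Epha4, which also binds ephrin-B ligands, had 8.11 and 8.20 in the LE, against 8.77 and 9.02 in control, a difference of -0.74 (adjusted p = 0.00758, SE 0.14) that did not pass without control D4 array 2 (adjusted p = 0.0544). The 2 other probe sets of Epha4 were called lower too, with -1.553 and -0.745. Against the hub at D4, Epha4 was not called, and the mean of its probe sets passed (-0.68, adjusted p = 0.0284). At D7 the differences were -0.16 for Epha1 and -0.08 for Epha4.

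Epha2 went the other way at D7 and was not called. It had 7.37 and 7.37 in the LE, 6.57 and 6.62 in the hub and 6.83 and 6.83 in control, differences of 0.55 from control (adjusted p = 0.166, SE 0.23) and 0.78 from the hub (adjusted p = 0.128, SE 0.23). The arrays of a group lay close together at D7 but not at D4, where the hub had 8.88 and 8.18, and a fit to the D7 arrays alone passed both differences (adjusted p = 0.0121 and 0.0099).

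Robo2, a Slit receptor, had 3.98 and 3.86 in the LE at D4, against 4.50 and 4.50 in the hub and 4.65 and 4.68 in control, all below the array median. It fell by 0.74 (adjusted p = 0.0096, SE 0.15) in the LE against control, a call lost without LE D4 array 2 (adjusted p = 0.0534), and at D7 the difference was -0.40 (adjusted p = 0.117, SE 0.15). That D7 difference passed without control D7 array 2 (adjusted p = 0.0189). The other 5 Slit and Robo genes were not called, and among them Robo1 differed by 0.11 at D4 and by 0.38 at D7.

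In the proliferative hub few members differed from control. At D4, 1 member was higher and 0 were lower, against 0.222% and 0.105% of all genes. An unadjusted p under 0.05 was reached by 5 of 77 members upward and 5 downward, and by 1180 and 696 of all 17097 genes. At D7, 2 were higher and 0 lower, against 0.591% and 0.17% of all genes. The unadjusted p was under 0.05 for 7 and 7 members and for 1415 and 749 of all genes. The median log2 fold change of the members was -0.05 at both days, against 0.01 and 0.02 over all genes. By the 2-fold rule, 0 members passed at D4, against 0.357% of all genes higher and 0.0877% lower. At D7, Basp1 alone passed, against 0.328% and 0.181%.

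Sema4d was higher in the hub than in control at both days, by 0.92 (adjusted p = 0.0158, SE 0.12) and 0.89 (adjusted p = 0.012, SE 0.12). The D4 call was lost without hub D4 array 1 (adjusted p = 0.179), hub D4 array 2 (0.0508) or control D4 array 1 (0.0618). The D7 call was lost without hub D7 array 1 (0.0673), hub D7 array 2 (0.143) or control D7 array 2 (0.0847), and with the mean of its probe sets (0.0764). The second probe set of Sema4d was not called in the hub (0.91 and 0.53, adjusted p = 0.225 and 0.476). Basp1 differed from control by 0.27 (adjusted p = 0.683, SE 0.17) in the hub at D4 and rose by 1.64 (adjusted p = 0.00437, SE 0.17) at D7, a call lost without hub D7 array 2 (adjusted p = 0.0682).

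Flrt2 in the hub stood above control by 1.14 (adjusted p = 0.0966, SE 0.24) at D4 and 0.89 (adjusted p = 0.149, SE 0.24) at D7. Both of its other probe sets were called higher at D4, by 2.06 and 2.35, and the mean of its probe sets passed at both days (adjusted p = 0.00426 and 0.0218). Nav2 differed by 0.92 and 0.91 without passing (adjusted p = 0.159 and 0.133), and Unc5b by -0.53 and -0.42 (adjusted p = 0.311 and 0.4). Flrt3 at D7 differed by -0.42 (adjusted p = 0.117), and its other probe set was called lower (-0.90).

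Against the hub, the LE had 8 members higher and 3 lower at D4, or 10.4% and 3.9% of the members, while 2.61% and 2.15% of all genes were called. At D7 it had 5 higher and 3 lower, or 6.49% and 3.9%, against 1.33% and 1.4% of all genes. The members' median was 0.03 at D4 and 0.00 at D7, against 0.03 and 0.01 over all genes. By the 2-fold rule, 5 were higher and 1 lower at D4, against 1.08% and 0.702% of all genes. At D7 the counts were 2 and 1, against 0.597% and 0.562%.

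The genes that separated LE from hub at both days were Basp1, Flrt2, Flrt3, Nav2 and Sema4d on the higher side and Unc5b and Plxnb1 on the lower. Flrt2 in the LE exceeded the hub by 1.94 (adjusted p = 0.00201, SE 0.24) at D4 and 2.63 (adjusted p = 0.00142, SE 0.24) at D7. Basp1 was at least 11.7-fold higher at D4, where its hub values lay about the array median, and 7.41-fold higher at D7. Flrt3 was higher by 1.20 (adjusted p = 0.00029, SE 0.10) and 0.52 (adjusted p = 0.0309, SE 0.10), so that at D7 it was called against the hub and not against control. Sema4d was higher by 1.03 (adjusted p = 0.00127, SE 0.12) and 0.84 (adjusted p = 0.00849, SE 0.12), and Unc5b fell by 1.27 (adjusted p = 0.00493, SE 0.19) and 1.09 (adjusted p = 0.0184, SE 0.19). Second probe sets of the last 2 genes were not called against the hub, with 0.78 and 0.59 for Sema4d (adjusted p = 0.162 and 0.327, over all probe sets) and -0.08 and -0.42 for Unc5b (adjusted p = 0.894 and 0.154). The other probe set of Plxnb1 gave -0.073 and -0.095, not called, and the mean of its probe sets passed at neither day (adjusted p = 0.109 and 0.115). Of the 5 other probe sets of Nav2, 1 was called higher at D4 and 0 at D7. The mean of the Nav2 probe sets did not pass at D7 (adjusted p = 0.128).

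At D4 alone, Efnb1 (0.94), Sema6d (1.43) and Nav3 (0.56) were also higher and Ephb6 (-1.11) lower. Efnb1 differed by 0.60 at D7 without a call, and passed there with a trended and robust prior (adjusted p = 0.0496) or the D7 arrays alone (0.0459). At D7 alone, Sema4g was lower (-1.12, adjusted p = 0.0309, SE 0.22), where the hub read above control by 0.64 (adjusted p = 0.242). Its D4 difference of -0.89 just missed the threshold (adjusted p = 0.0507) and passed under 6 of the alternatives (0.0395 to 0.0482). Efnb2, lower than control in the LE, was not called against the hub (-0.30 and -0.41, adjusted p = 0.262 and 0.129).

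**Figure D4:**
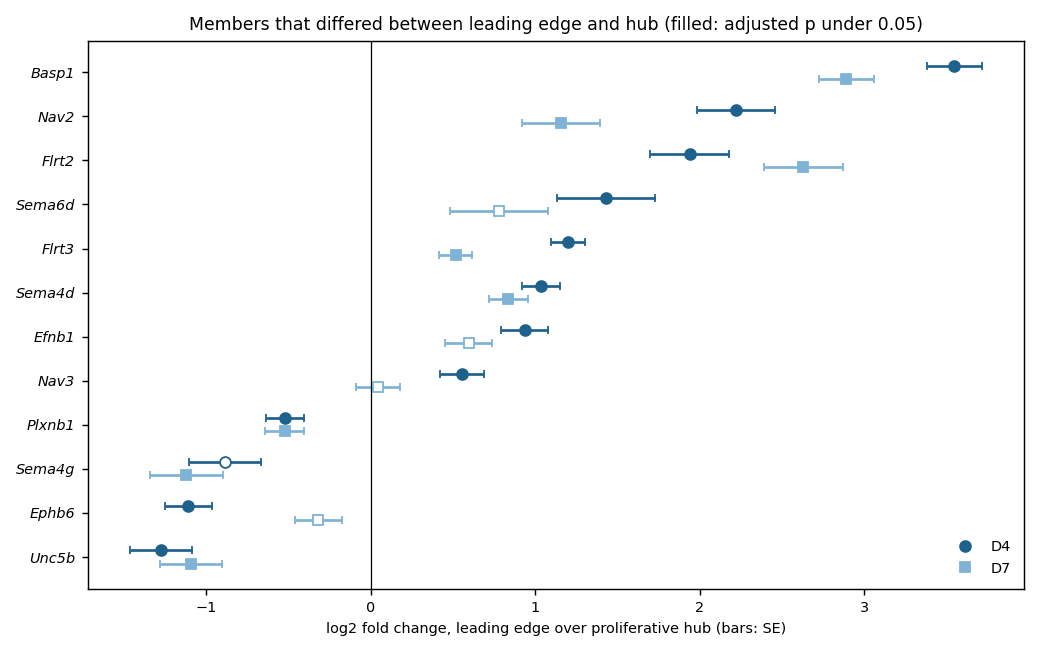
Log2 fold change of LE over proliferative hub (horizontal axis) with its SE, for the 12 members called at D4 (circles) or D7 (squares); filled symbols passed an adjusted p of 0.05. Basp1 lies farthest right at both days and Unc5b among the lowest, and Flrt3 and Nav2 lie closer to 0 at D7 than at D4.

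Several calls between LE and hub were lost when 1 array was left out. Those of Flrt3 and Nav2 at D7 were each lost without any D7 array (adjusted p from 0.0518 to 0.201 and from 0.0518 to 0.234), as was that of Sema4g (0.0526 to 0.214). Unc5b at D7 did not pass without any LE or hub array of that day (adjusted p from 0.0926 to 0.112), and Plxnb1 at D7 passed in 0 of the 12 fits (0.0524 to 0.272). At D4, Plxnb1 was lost without any LE or hub array of D4 or either hub D7 array (0.0508 to 0.2), and Nav3 in 9 of the 12 fits (0.0551 to 0.242), all but those without LE D4 array 2 or a control D4 array. Sema6d was lost without LE D4 array 1 (0.123), LE D4 array 2 (0.0682) or hub D4 array 2 (0.107), Efnb1 without hub D4 array 2 (0.0522), and Sema4d at D7 without LE D7 array 1 (0.084), hub D7 array 1 (0.059) or hub D7 array 2 (0.0626). Epha1 and Sema4g at D4 and Robo2 at D4, not called, passed without LE D4 array 1 (0.0265), a control D4 array (0.013) and a control D7 array (0.0181). For Basp1, Flrt2 and Nav2 at D4, and for Basp1 and Flrt2 at D7, 0 of the 12 fits lost the call.

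The 2 days gave the same list in part. All 6 members that exceeded control in the LE at D7, Basp1, Flrt2, Nav1, Nav2, Sema4d and Sema6d, were among the 11 of D4, and all 4 lower at D7, Efnb2, Ephb6, Plxnb1 and Unc5b, were among the 8. The D4 and D7 differences of LE over control, which share no array, correlated with r = 0.915 across the 77 members and 0.786 across all genes. Genes are not independent replicates. For the hub over control r was 0.676 across members and 0.508 across all genes.

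**Figure D5:**
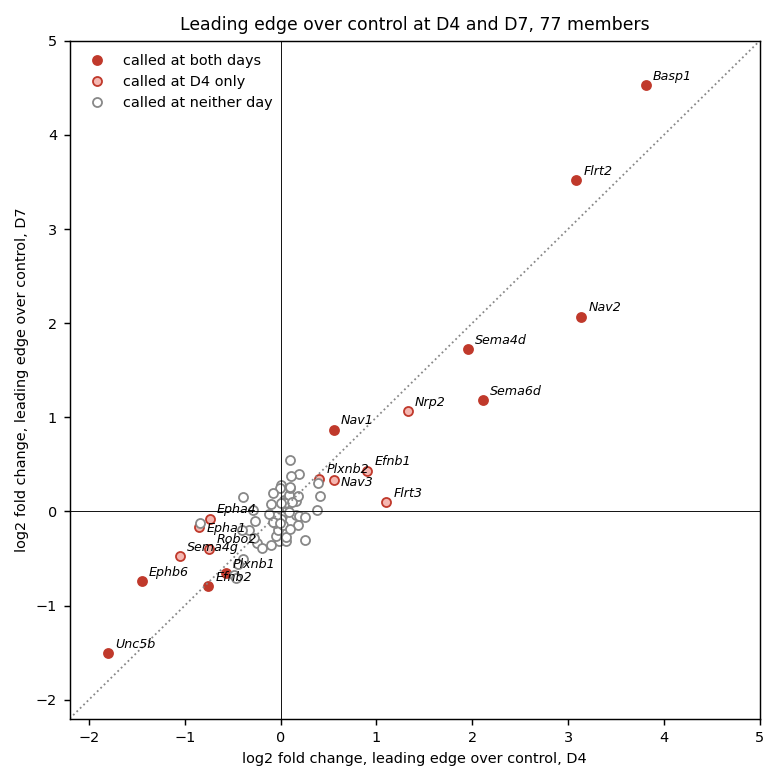
Log2 fold change of LE over control at D4 (horizontal axis) and D7 (vertical axis) for the 77 members; the dotted line marks equal values and the fill tells at which days a member was called. Basp1 and Flrt2 lie above the line, Nav2, Sema6d and Flrt3 below it, and Epha1, Epha4 and Robo2 were called at D4 only.

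The change of a difference between the days was tested directly, and 0 members passed for LE over control, against 0.00585% of all genes with a higher and 0.0234% with a lower difference at D7. At an unadjusted p under 0.05, 681 and 656 of the 17097 genes had a higher or a lower difference at D7. Of the members, 5 had a higher and 4 a lower one. Flrt3 came nearest, with a difference of LE over control that was lower by 1.00 at D7 (adjusted p = 0.0853, SE 0.14). It was followed by Ephb6, whose difference moved by 0.71 toward 0 (adjusted p = 0.392, SE 0.20). For the hub over control 0 members passed, as did 0 of all genes. An unadjusted p under 0.05 was reached by 425 and 355 of all genes and by 2 and 2 members. Among the members, Basp1 had the largest value there, 1.37 higher at D7 (adjusted p = 0.803, SE 0.24). For LE over hub 0 members passed, against 0% and 0.0175% of all genes. An unadjusted p under 0.05 was reached by 3 and 5 members there, and by 396 and 478 of all genes. A call at D4 and not at D7 is therefore not shown to differ between the days.

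Other genes of the same pathways were counted in 3 lists that do not hold members. The lists were drawn up with earlier results of these data known, so their shares do not test the pathways. Of 26 co-receptors and partners, the LE had 4 above and 3 below control at D4, and 5 and 3 at D7, or 15.4% and 11.5% of the list at D4 and 19.2% and 11.5% at D7. Over all genes the shares were 8.3% and 5.83% at D4 and 9.25% and 5.37% at D7. In the hub 0 and 0 were called at D4 and 1 and 0 at D7, against 0.222% and 0.105% of all genes at D4 and 0.591% and 0.17% at D7. Lgals1, a lectin that binds Nrp1, was higher by 2.74 and 3.20, Met, the hepatocyte growth factor receptor that couples to plexin B1, by 1.03 and 0.79, and Adam10, a protease that cuts ephrins, by 0.95 and 0.93. Neo1, a receptor of netrins and RGM proteins, fell by 1.24 and 0.98. The list medians were 0.08 and 0.03. The latrophilins Adgrl1 and Adgrl2, partners of Flrt proteins, also fell at D4, by 0.81 and 0.48, and Adgrl2 did so at D7, where it fell by 0.78.

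Of 47 signalling genes, 11 were higher and 3 lower in the LE at D4 and 8 and 4 at D7, with medians of 0.05 and 0.11. These were 23.4% and 6.38% of the list at D4, against 8.3% and 5.83% of all genes, and 17% and 8.51% at D7, against 9.25% and 5.37%. The share lower at D4 was thus near that of all genes. In the hub 1 was higher and 0 lower at each day (2.13% of the list, against 0.222% and 0.591% of all genes higher). Pdlim7, a protein of actin stress fibres, was higher in the LE by 2.88 and 2.21, Limk1, a kinase that curbs cofilin, by 1.71 and 0.66, and Cdk5r1, an activator of Cdk5, by 1.31 and 1.17. Rnd3, a small GTPase that acts on the actin cytoskeleton, fell by 1.07 and 1.14. The genes that rose and those that fell thus stood side by side in this list.

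Of 16 growth cone cytoskeleton genes, 4 were higher in the LE at D4 and 6 at D7, and 0 were lower at either day. The higher shares were 25% and 37.5%, against 8.3% and 9.25% of all genes. The list was chosen with earlier results known, and the study itself names Fscn1 and Tubb3 among genes overexpressed at the LE. Tubb3, a neuronal tubulin, was higher by 4.61 (adjusted p = 0.000158, SE 0.43) and 4.93 (adjusted p = 0.00014, SE 0.43). Marcksl1 was higher by 3.37 and 1.76, Fscn1, which bundles actin, by 3.06 and 3.25, and Gap43, like Basp1 a growth cone protein, by 0.82 at D7. Fscn1 was also higher in the hub at both days, by 1.91 and 2.05. Against the hub, 3 genes of the list were higher in the LE at D4 and 4 at D7, and 0 lower, or 18.8% and 25% of the list against 2.61% and 1.33% of all genes.

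Markers of other cells were read as well, and the part of such cells in the members' values was not tested. Of 6 Schwann cell and nerve markers, of which Sox10 was also on the melanocyte list, 0 were called in any of the 6 comparisons, and their summed linear intensity was 285 to 371 in the LE, 345 to 468 in the hub and 329 to 398 in control at D4, and 149 to 153, 150 to 157 and 166 to 173 at D7. Of 9 immune markers, 0 were called. The sum of 7 melanocyte markers was 295 to 338 in the LE at D4, and stood out at 2309 on hub D4 array 2 and 1155 on control D4 array 1, against 387 and 403 on the other arrays of those groups. Without these 2 arrays, a choice made after the data were seen, the LE had 9 members above and 8 below control at D4. Calls for Nav1 (adjusted p = 0.0595), Plxnb2 (0.0999), Plxnb1 (0.0767) and Robo2 (0.0511) in that comparison were then lost, as was that for Sema4d in the hub at D4 (0.0647). For LE over hub, Sema6d (0.0879), Nav3 (0.139) and Plxnb1 (0.207) at D4 and Flrt3 (0.0529) and Plxnb1 (0.0686) at D7 were lost. Other calls were gained, with 1 control array and 1 hub array left at D4. Ntng2, a netrin-G, passed as lower in the LE (-1.36, adjusted p = 0.0031) and in the hub (-1.54, 0.0219) at D4, and Sema5a as lower in the LE (-0.71, 0.0331). In the hub, Flrt2 at D4 (0.0463) and D7 (0.0469) and Sema6d at D4 (0.0463) passed as higher and Ntn4 at D7 (0.0425) as lower. At D7, Epha2 (0.0241) and Nrp2 (0.02) passed as higher in the LE than in control and Ntn4 (0.0163) as lower, and Epha2 was also higher than in the hub (0.0179).

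The epidermal markers were not level between the regions either. Of 7 basal keratinocyte markers, Krt15, a keratin of basal and follicle cells, fell in the LE against control by 2.48 at D4 and 1.88 at D7, Itga6, the gene of the sorted integrin, rose by 0.42 at D4, and the other 5 were not called. Of 6 suprabasal markers, the keratins Krt1 (-0.77) and Krt10 (-0.69) were lower at D4 and 0 were called at D7. Sox9 (-0.61), 1 of 5 bulge markers, and Gata3 (-0.71), 1 of 6 inner root sheath and matrix markers, were also lower at D4, while Tchh (0.71) of the root sheath list and Krt18 (0.50), 1 of 5 Merkel cell markers, were higher. Mitf, a melanocyte regulator, was lower at both days (-1.06 and -0.89), and Dcn, 1 of 7 fibroblast markers, was lower at D7 (-2.59). Of 5 infundibulum and isthmus markers, 1 was lower in the LE at D4 and 3 at D7, with 0 higher, and their summed intensity at D7 was 2350 to 2461 in the LE, 3191 to 3282 in the hub and 4021 to 4026 in control. Acta2 was higher in the LE by 2.11 and 2.51, while the other 3 smooth muscle and pericyte markers were not called. The part of these cells in the members that fell in the LE was not tested.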

How the data were processed

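Basal cells of 12 samples were profiled on Affymetrix mouse expression arrays. The deposited values are log2 intensities, which the authors obtained with RMA, a method that corrects background, equalizes the distributions of arrays and summarizes the probes of each set. Its version was not given in the sources used, and scanner files were not used. Of 45141 probe sets, 104 were controls and 28898 were paired with 1 gene in the platform annotation, while 551 paired with several genes and 15588 with none were left out. Each of 17097 genes was represented by its probe set of highest mean over the 12 arrays, and 46 of the 77 members had more than 1. No filter on dim genes was applied.

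A linear model with 6 groups was fitted in limma 3.58.1 (R 4.3.3) with moderated variances (6 residual degrees of freedom). Regions were compared within each day in 6 comparisons, and 3 contrasts tested the change between days. P values were adjusted over all genes (Benjamini-Hochberg), and a gene was called at an adjusted p under 0.05. The labels name 2 biological replicates per group, and whether their pools held separate mice is not stated, so p values measure the spread between these samples only. The number of arrays limits the precision. The procedure was checked on simulated data in which 200 genes differed.

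The members, the 3 pathway lists and the marker lists were chosen with earlier results of these data known. Members were named with values where the study names them, where they were called (at most 10 for a direction of a comparison, by size), where they had the largest difference of LE over control in their family, or where probe sets of a called gene disagreed in sign. Plxnb2, Epha2, Efna4, Efna5, Ntn4, Ntng2, Robo1, Flrt1, Sema3a and Sema5a are named beyond that rule, after their values were seen. Alternatives were other scalings, all probe sets of a gene, a filter on dim genes, another prior, the arrays of a day alone, a replicate block, the 2-fold rule, and fits without each array in turn. Promoters are RefSeq's.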

Additional observations from a re-analysis of the deposited data

How the results depend on the processing

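Single-gene values were recomputed under the alternatives for the 19 members called in any of the 6 comparisons and for Epha2 and Ntn4. Of these values, 2324 stayed on their side of the threshold, 144 lost and 46 gained a call. Where a value was called in the main fit or under the alternative, 0 changed direction. Changes of direction among values called in neither were not counted. Counts of members called (higher, then lower) that moved by over 1.5 times are as follows. With the arrays of a day alone, LE over control at D4 had 7 higher, hub over control 0 higher at D4 and 1 lower at D7, and LE over hub at D4 5 and 1. By the rule of over 2-fold in each replicate, LE over control had 6 and 2 at D4 and 1 lower at D7, hub over control 0 higher at D4 and 1 at D7, and LE over hub 5 and 1 at D4 and 2 and 1 at D7. Hub over control had 2 higher at D4 with the mean of a gene's probe sets, with each probe set by itself, with a trended and robust prior, or without the 2 arrays with melanocyte markers, the last chosen after seeing the data, which also gave 1 lower at D4. All 4 of these gave 1 lower in the hub at D7. LE over hub at D4 had 5 lower under the first 3 of them, and LE over control at D7 had 7 lower with each probe set by itself. The change of LE over control between days had 1 lower member with quantile normalization of all arrays and with the trended prior. The causes were not tested.

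With the arrays of a day alone, 13 calls were lost. For LE over control at D4 these were Nav1 (adjusted p = 0.0892), Nav3 (0.0744), Nrp2 (0.138), Plxnb2 (0.111) and Sema4g (0.0553). For LE over hub they were Efnb1 (0.0579), Nav3 (0.152), Plxnb1 (0.0985), Sema6d (0.13) and Unc5b (0.0673) at D4 and Flrt3 (0.0518) and Plxnb1 (0.0704) at D7, and for hub over control Sema4d at D4 (0.166). Among 7 gained were Nrp2 (0.0211) and Ntn4 (0.00497) for LE over control at D7.

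Leaving out 1 array at a time gave, for LE over control, 7 to 10 higher and 6 to 9 lower at D4 and 4 to 6 and 2 to 5 at D7. For hub over control it gave 0 to 1 and 0 to 1 at D4 and 0 to 2 and 0 to 1 at D7, and for LE over hub 5 to 8 and 2 to 4 at D4 and 2 to 5 and 0 to 2 at D7. The change between days gave 0 to 1 lower for LE over control and 0 otherwise. Over all genes the share called in LE over control at D4 ran from 7.91% with the D4 arrays alone to 24.4% with only genes above the array median.

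Same-numbered arrays deviated together with r = 0.17 to 0.245 at D4 and 0.00234 to 0.0666 at D7, above 0.1 for each pair of regions at D4 and for none at D7, and the labels do not say what a number marks. With the number as a replicate block, 1 member call was lost, Nav2 in LE over hub at D7 (adjusted p = 0.0519), and 8 were gained. LE over hub at D4 had 5 lower members, with Efna4 (0.00653) and Sema4g (0.0482) gained. Efna4 was also gained as lower in LE over control at D4 (0.0165) and D7 (0.00432), Flrt1 as lower at D7 (0.0266), and Efna5 (0.0359) and Epha2 (0.0166, and 0.0134 over the hub) as higher at D7.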
